A study of Mus musculus with 2 samples.

Results

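The antiviral interferon-stimulated genes described here are a fixed list of 36 mouse genes, given by name and not picked by a threshold on these arrays. Of these, 34 had at least 1 probe that could be named through its RefSeq accession, out of 18434 such genes on the array. The genes Dtx3l and Ddx60 had no probe with a matched accession. Splenic CD4 T cells of wild type C57BL/6 mice, an inbred strain, were sorted magnetically to over 98% purity, stimulated through the T cell receptor and CD28 for 2 days and cultured for 3 more days. For Th9+IFNgamma, the medium had 10 ng/ml of IFNgamma with 3 ng/ml each of IL-4 and TGFbeta. For Th9, it had 10 ng/ml of IL-4, 3 ng/ml of TGFbeta and 1 µg/ml of an antibody to IFNgamma, and Th9 conditions are named for the IL-9 such cells make. Both cultures shared the stimulation, the TGFbeta dose and the strain, and they differed in the IL-4 dose as well as in IFNgamma and its antibody, so these differences cannot be told apart. The labels do not say how many mice stood behind a culture.

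Each culture was read on 1 single-colour array, so no value has a replicate, no test was possible, and sizes are described against a 2-fold threshold. A gene's value is its scaled signal, the processed brightness of its brightest probe, rescaled so that either array has a 75th percentile of 598.6. It compares 1 gene between the arrays and does not rank different genes. A gene counts as measured where a probe was well above background on both arrays. Probes well above background made up 60.6% on the Th9+IFNgamma array, against 59.9% for Th9, and 0 spots were saturated. For measured genes of the list, the software error of the log2 difference was 0.20 to 0.28. The extraction software attaches this error to each signal, and it was 0.204 for bright genes such as Samhd1 and Daxx alike. It is thus not a spread measured here, and it does not cover variation between cultures. Single spots of 144 probes printed repeatedly had an SD of 0.12 on the same scale. The 8 markers of CD4 T cells were measured on both arrays and lay within 2-fold, with Cd3e at 1789 in Th9+IFNgamma cells and 1544 in Th9 cells and Cd4 at 502 in Th9+IFNgamma cells and 444 in Th9 cells. Of 27 probed markers of other cell types, 14 exceeded background in Th9+IFNgamma cells and 15 in Th9 cells. Their summed scaled signal was 2875 in Th9+IFNgamma cells and 3216 in Th9 cells. By cell type the sums ran from 30.3 to 1338 in Th9+IFNgamma cells and from 44.8 to 1317 in Th9 cells. Since the signal does not rank different genes, these sums do not measure the share of other cells. Among the markers above background on neither array were Lyz2 and Fcgr1 of macrophages, Itgax and Siglech of dendritic cells, Pax5 of B cells, Ncr1 of NK cells and S100a8 and S100a9 of granulocytes. Among the 14 that were measured, 1 passed 2-fold upward in Th9+IFNgamma cells (Hba-a1 of erythroid cells, 2.24-fold) and 2 downward (Adgre1 of macrophages, 7.19-fold, and Col1a2 of fibroblasts, 2.19-fold), and the median log2 difference was -0.42. The other measured macrophage markers, Csf1r and Cd14, had log2 differences of -0.01 and 0.31. The brightest probes among these markers were those of Cd8a and of Cd79b of B cells. Cd8a read 1338 in Th9+IFNgamma cells and 1074 in Th9 cells, and Cd79b read 844 in Th9+IFNgamma cells and 1187 in Th9 cells. The part of these markers in the results was not tested.

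Interferons are secreted cytokines that warn cells of infection. Type I interferons signal through the receptor chains IFNAR1 and IFNAR2 to a complex that holds STAT2 and IRF9 and binds a promoter sequence called the interferon-stimulated response element (ISRE). Interferon-gamma, the cytokine of Th1 cells, signals through IFNGR1 and IFNGR2 to promoters with the gamma-activated site (GAS), and it also induces IRF1, which can bind the ISRE. The induced proteins degrade viral RNA, block its translation, limit nucleotides, tether budding virus or amplify the response, and many of them are made in T cells.

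The genes of the list were higher in Th9+IFNgamma cells. Of the 26 measured on both arrays, all 26 had a higher signal in Th9+IFNgamma cells (49.6% of all measured genes did), and 20 (76.9%) were at least 2-fold higher, where 632 of all 12272 measured named genes (5.15%) were. None was at least 2-fold lower, where 7.42% of all measured genes were. The median log2 difference was 1.82, against -0.01 for all measured genes, and single genes ran from 0.64 for Samhd1 to 5.59 for Isg20. Of the 34 genes with a probe, 76.5% were measured on both arrays, where 66.6% of all named genes were. A further 7 (20.6%) exceeded background on the Th9+IFNgamma array alone, where 2.57% of named genes did, and 0 on the Th9 array alone, where 2.65% did. Each of the 7 had a lower bound of at least 2-fold. Of all 473 genes above background on that array alone, 33.8% had such a bound. With normexp, a background correction that raises dim signals, 4 of the 7 bounds stayed at least 2-fold. Oas1g was above background on neither array. In RNA from a whole culture, a lower signal cannot tell fewer expressing cells from less RNA per cell.

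Of the 20 measured genes with the largest differences upward, 7 were on the list, and of the 100 largest, 9 were. The list makes up 0.212% of all measured genes. Of the 18 named genes (0.147% of those measured) at least 16-fold higher in Th9+IFNgamma cells, 6 (33.3%) were on the list, which is 23.1% of its measured genes. These were Isg20, Rtp4, Ifit3, Isg15, Xaf1 and Oas1a. With normexp only Isg20 and Rtp4 stayed at 16-fold, 2 of 11 such genes. At the 8-fold level 8 of 52 genes (0.424% of those measured) were on the list (5 of 30 with normexp), and at the 4-fold level 12 of 161 (1.31%). In the other direction 2.32%, 0.782% and 0.244% of measured genes were at least 4-fold, 8-fold and 16-fold lower, and 0 of these were on the list. The other end of the list was compact, since Samhd1, Adar, Znfx1, Sp100, Daxx and Ifi35 lay between 1.55-fold and 1.84-fold higher, and Bst2 lay just past the threshold at 2.01-fold. The list therefore spanned a wide range of sizes in 1 direction.

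**Figure D1:**
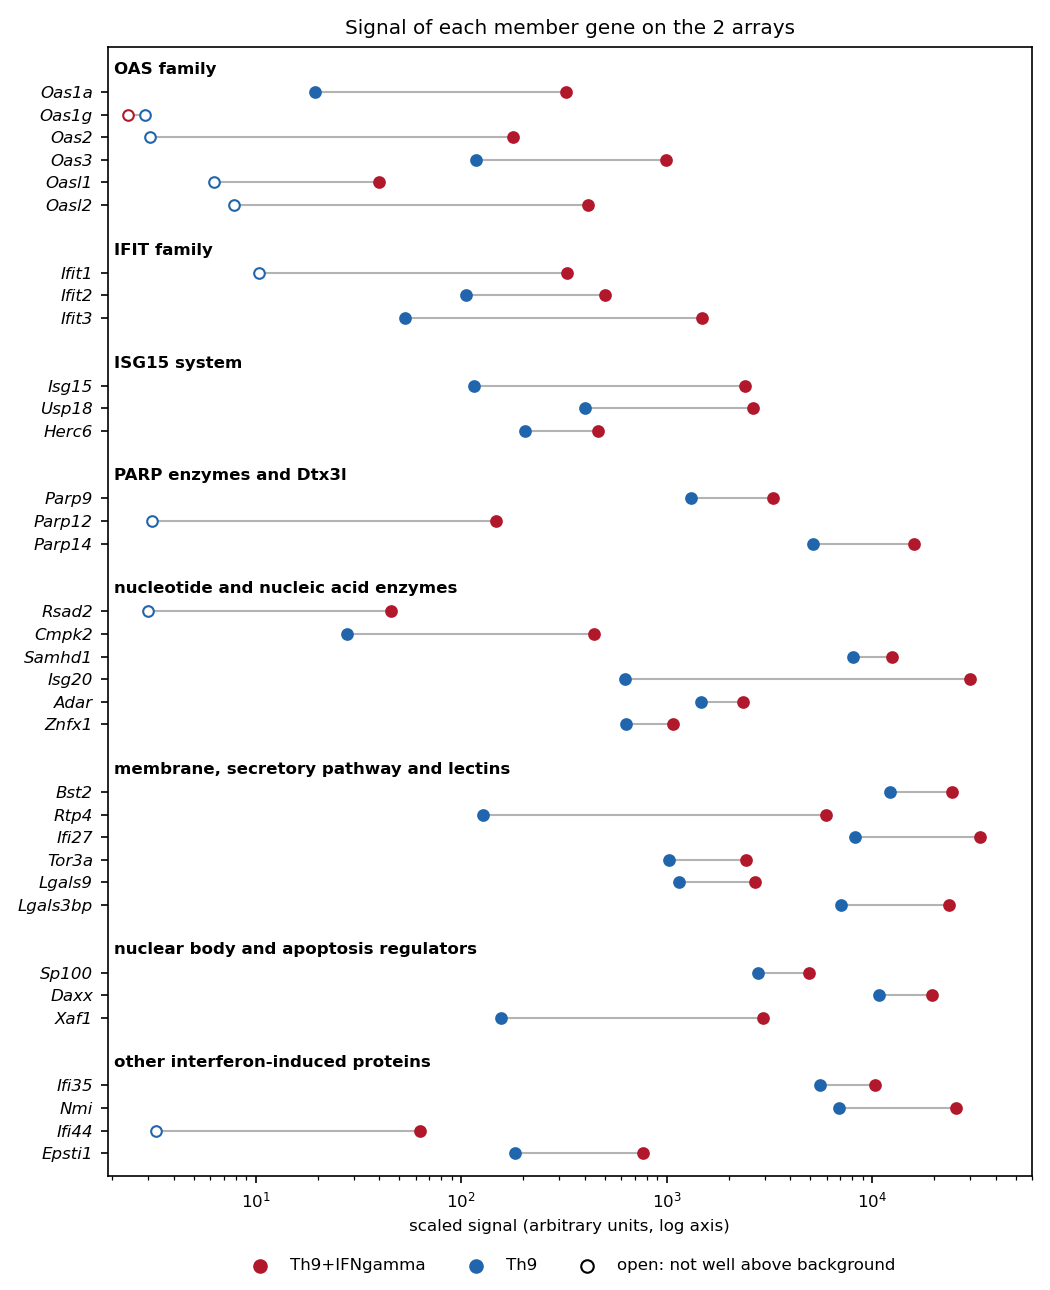
Scaled signal (log axis, arbitrary units) of each of the 34 genes with a probe on the Th9+IFNgamma array (red) and the Th9 array (blue), in functional groups, with open circles for probes not well above background. The red circle lies to the right of the blue one for each gene except Oas1g, which is open on both arrays, and 7 genes are open on the Th9 array alone.

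**Figure D2:**
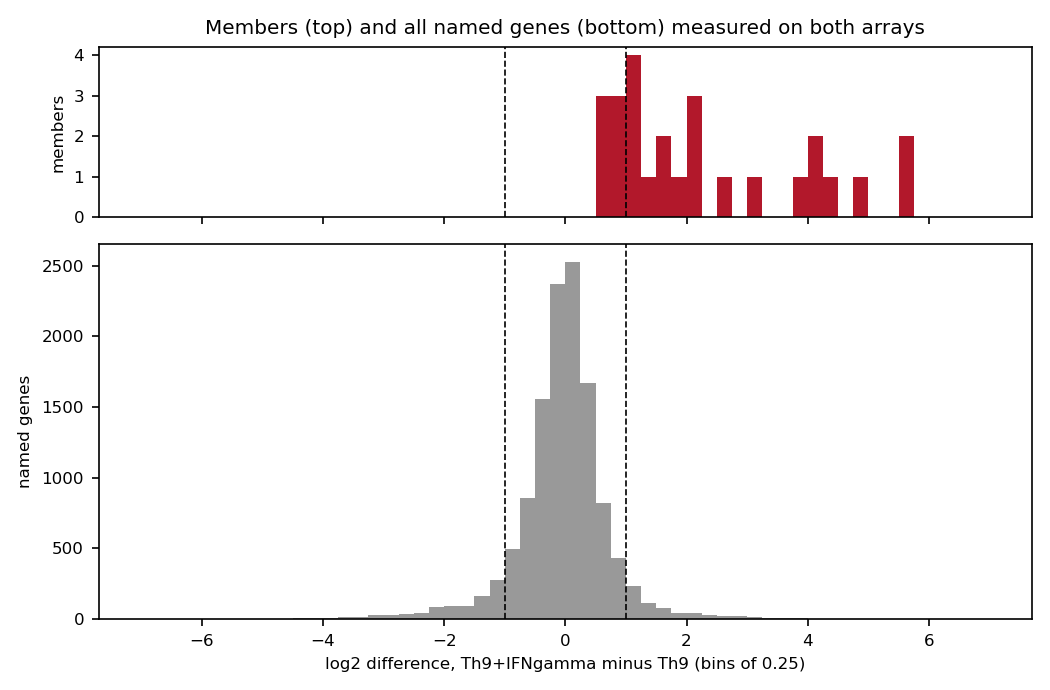
Number of genes per bin of log2 difference, Th9+IFNgamma minus Th9, for the 26 measured genes of the list (top) and all 12272 measured named genes (bottom), with dashed lines at 2-fold. The genes of the list lie between 0.64 and 5.59, and all measured genes centre on -0.01.

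The start sites of these genes were searched for the exact letters of the classical interferon elements. RefSeq windows from 250 bases before to 50 bases after an annotated start (GRCm38.p6) were found for 29 genes of the list. On either strand, the core of the ISRE, which is GAAA, any NN pair and GAAA again, stood in the windows of 10 of these 29 genes (34.5%), against 3.99% of the 27025 genes in the table. The fuller form, which is the same letters followed by CT and whose matches are all matches of the core as well, stood in 6 (20.7%), against 0.303% of all genes. The GAS letters TTCNNNGAA stood in 7 (24.1%), against 9.55% of all genes. Some ISRE matches overlap each other, and in the Bst2 window a GAS match overlaps the ISRE. A match describes letters and is not a site shown to be bound, and a window without them says only that these letters lie elsewhere or nowhere. Near matches that differ in a letter or in spacing were not counted.

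The 6 windows below were chosen after the values and motifs were seen, to show how the matches are arranged, and each holds at least 1. Windows without any match include those of Oasl2, Parp12 and Xaf1, so the 6 do not stand for the list. They are written from 5′ to 3′ on the strand of the gene, and capitals mark every match of the 3 motifs.
Isg15, chr4:156200769-156201068, minus strand: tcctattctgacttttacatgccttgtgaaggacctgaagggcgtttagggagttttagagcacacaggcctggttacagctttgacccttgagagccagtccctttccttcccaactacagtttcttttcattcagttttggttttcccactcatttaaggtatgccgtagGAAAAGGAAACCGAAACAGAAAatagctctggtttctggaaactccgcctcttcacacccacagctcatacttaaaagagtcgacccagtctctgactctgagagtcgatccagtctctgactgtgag
Ifit1, chr19:34640639-34640938, plus strand: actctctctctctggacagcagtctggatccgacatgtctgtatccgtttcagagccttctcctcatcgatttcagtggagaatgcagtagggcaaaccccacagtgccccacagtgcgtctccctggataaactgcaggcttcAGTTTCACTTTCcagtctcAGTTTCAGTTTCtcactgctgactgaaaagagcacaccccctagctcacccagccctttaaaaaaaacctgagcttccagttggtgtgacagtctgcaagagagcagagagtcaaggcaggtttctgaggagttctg
Ifit3, chr19:34583279-34583578, plus strand: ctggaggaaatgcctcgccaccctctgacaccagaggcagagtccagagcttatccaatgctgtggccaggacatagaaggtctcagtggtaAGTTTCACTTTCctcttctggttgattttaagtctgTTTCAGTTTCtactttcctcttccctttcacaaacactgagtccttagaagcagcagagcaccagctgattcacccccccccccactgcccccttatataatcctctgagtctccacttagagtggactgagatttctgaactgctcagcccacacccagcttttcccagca
Oas1a, chr5:120907476-120907775, minus strand: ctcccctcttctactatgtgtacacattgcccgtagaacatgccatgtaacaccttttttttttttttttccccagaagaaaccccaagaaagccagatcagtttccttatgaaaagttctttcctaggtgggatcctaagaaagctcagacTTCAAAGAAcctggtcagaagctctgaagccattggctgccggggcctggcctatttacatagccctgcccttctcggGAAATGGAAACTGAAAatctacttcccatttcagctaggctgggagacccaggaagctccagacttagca
Oas1g, chr5:120887564-120887863, minus strand: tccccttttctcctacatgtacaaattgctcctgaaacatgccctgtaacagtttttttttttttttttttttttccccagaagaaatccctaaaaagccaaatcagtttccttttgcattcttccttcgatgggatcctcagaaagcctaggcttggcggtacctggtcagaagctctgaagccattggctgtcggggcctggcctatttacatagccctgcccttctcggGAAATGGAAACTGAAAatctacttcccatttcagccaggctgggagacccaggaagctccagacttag
Isg20, chr7:78913174-78913473, plus strand: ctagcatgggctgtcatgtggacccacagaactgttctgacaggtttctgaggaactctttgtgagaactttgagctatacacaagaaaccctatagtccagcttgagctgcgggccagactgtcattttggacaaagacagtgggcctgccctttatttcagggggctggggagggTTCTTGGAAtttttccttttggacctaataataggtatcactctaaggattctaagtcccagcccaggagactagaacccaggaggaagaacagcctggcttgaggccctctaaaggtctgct
In the Isg15 window 3 overlapping ISRE cores run from position -78 to -57, counted from the start. Ifit1 and Ifit3 carry their cores on the opposite strand, and both Ifit1 cores extend to the fuller form, as does 1 of the 2 in Ifit3. The Oas1a and Oas1g windows are 88.8% identical over 294 aligned bases, and both hold 2 overlapping cores just before the start, of which the first extends to the fuller form. Their letters in that stretch are the same, yet Oas1a was measured on both arrays and Oas1g on neither. The GAS match of Oas1a, further upstream, is not in the Oas1g window. The first of 3 Isg20 windows holds a GAS match from position -73 to -65 and no ISRE core, although Isg20 had the largest difference of the list.

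Genes with an ISRE core had a median log2 difference of 3.57 over the 6 that were measured, ranging from 1.01 for Bst2 to 4.80 for Ifit3. Genes whose windows lack it had a median of 1.46 over 14, from 0.64 for Samhd1 to 5.59 for Isg20, so the ranges overlap. With normexp the medians were 2.35 with a core and 1.40 without one, a gap less wide than with the signals as deposited. None of the 6 measured genes with a core lay within 2-fold, against 6 of the 14 without one. Of those with a core, Bst2 fell just within 2-fold with 3 of the other scalings. These values leave out genes with only a bound, 2 with a core and 4 without one, so the comparison covers part of each group. The 7 genes with GAS letters, all measured, had a median of 1.01, and the 13 measured genes without them one of 1.89. A further 6 genes without GAS letters had only a bound and are not in that median. The genes share 2 arrays and were not independent draws, so these values are a description.

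**Figure D3:**
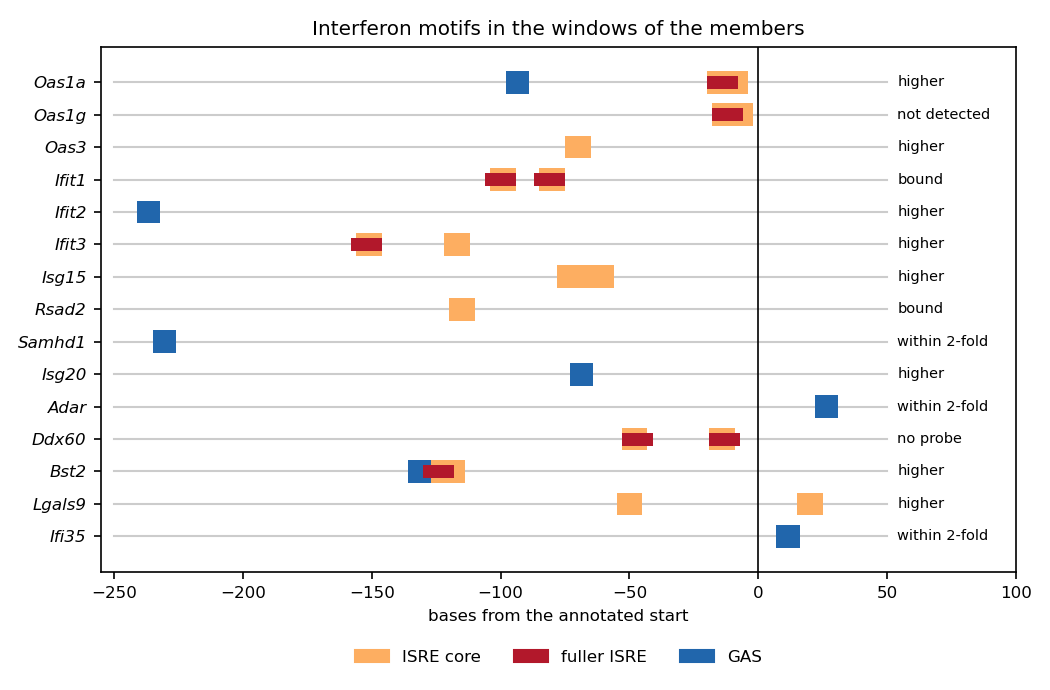
Positions of ISRE cores (orange), fuller ISREs (red) and GAS letters (blue) in bases from the annotated start, for the 15 genes of the list whose windows hold any, with the result on the arrays at the right. Oas1a and Oas1g carry the ISRE at nearly the same place, and "bound" marks genes above background on the Th9+IFNgamma array alone.

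The OAS family makes or modulates the oligoadenylate signal of double-stranded RNA. Oas1a, Oas2 and Oas3 encode synthetases whose product sets off the breakdown of viral and cellular RNA. Oas3 read 989 in Th9+IFNgamma cells and 118 in Th9 cells, a log2 difference of 3.07 (8.39-fold). Its dimmer probe was above background in Th9+IFNgamma cells alone (at least 4.86-fold higher). Oas1a read 325 in Th9+IFNgamma cells and 19.4 in Th9 cells, a log2 difference of 4.06. With normexp the Oas1a difference was 2.17. Dim Th9 signals thus left the size of the Oas1a difference less certain than that of Oas3.

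The other OAS genes had no measured level in Th9 cells. For these, bounds set the Th9+IFNgamma signal against 12.5, the dimmest Th9 signal that still counted as well above background. Some probes not well above background were slightly brighter in Th9 cells, such as that of Itgax at 13.1, so the bounds are approximate. Oasl2, in mouse a synthetase with ubiquitin-like domains, read 412 in Th9+IFNgamma cells and 7.86, not well above background, in Th9 cells, so that it was at least 32.9-fold higher. Oas2 read 178 in Th9+IFNgamma cells and 3.05, not well above background, in Th9 cells, at least 14.2-fold higher, whereas its second probe was above background on neither array. Oasl1, which in mouse holds back translation of the factor IRF7, read 39.9 in Th9+IFNgamma cells and 6.24, not well above background, in Th9 cells, at least 3.19-fold higher. With normexp these bounds were 5.97-fold for Oasl2, 3.17-fold for Oas2 and 1.33-fold for Oasl1, so that Oasl1 no longer reached 2-fold. Oas1g, a close relative of Oas1a, read 2.40 in Th9+IFNgamma cells and 2.90 in Th9 cells, neither above background.

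Genes of this family lie side by side. On chromosome 5, Oas2 neighbours Oas3 and Oas1g neighbours Oas1a, with the 4 genes Oas1e, Oas1c, Oas1f and Oas1h between them, and Oasl1 neighbours Oasl2 elsewhere on the same chromosome. Of the genes in between, Oas1f read 839 in Th9+IFNgamma cells and 229 in Th9 cells (3.67-fold higher), and Oas1c 2614 in Th9+IFNgamma cells and 1264 in Th9 cells (2.07-fold higher). Oas1e, named after its value was seen, was 1.82-fold higher, at 363 in Th9+IFNgamma cells and 199 in Th9 cells, and Oas1h was above background on neither array. Oas1 relatives are alike in sequence and the files give no probe sequences, so uptake of a relative's RNA by a probe was not tested.

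IFIT proteins bind viral RNA whose cap lacks the host's methyl marks and keep it from being translated. Ifit3 read 1487 in Th9+IFNgamma cells and 53.2 in Th9 cells, a log2 difference of 4.80 (3.70 with normexp). Ifit2 read 502 in Th9+IFNgamma cells and 106 in Th9 cells by its brighter probe, a log2 difference of 2.25. By the other it read 184 in Th9+IFNgamma cells and 35.3 in Th9 cells, one of 2.38. The 2 Ifit2 probes thus gave nearly the same size, although with normexp they gave 1.69 and 1.34. Ifit1, the cap-binding member, read 328 in Th9+IFNgamma cells and 10.3, not well above background, in Th9 cells, at least 26.2-fold higher (at least 5.08-fold with normexp). All 3 genes were clearly above background in Th9+IFNgamma cells, and the size for Ifit1 is a bound.

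The Ifit genes lie on chromosome 19, where Ifit2 neighbours Ifit3, and Ifit1bl1, Ifit3b and Ifit1bl2 stand between Ifit3 and Ifit1. Ifit1bl1, an Ifit1-like gene, read 321 in Th9+IFNgamma cells and 10.8, not well above background, in Th9 cells, at least 25.7-fold higher (4.69-fold with normexp). Ifit3b read 77.8 in Th9+IFNgamma cells and 3.16, not well above background, in Th9 cells, at least 6.22-fold higher (2.01-fold with normexp). Ifit1bl2 was above background on neither array. As in the OAS family, a probe may take up RNA of a near relative, which was not tested.

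ISG15 is a ubiquitin-like protein that is attached to viral and host proteins by a chain of enzymes. Isg15 read 2395 in Th9+IFNgamma cells and 115 in Th9 cells, a log2 difference of 4.38 (20.8-fold). Usp18, which removes ISG15 and dampens the type I interferon receptor, read 2637 in Th9+IFNgamma cells and 400.2 in Th9 cells, a log2 difference of 2.72. Herc6, the main ISG15 ligase in mouse, read 464 in Th9+IFNgamma cells and 205 in Th9 cells by its brighter probe (log2 difference 1.18) and 112 in Th9+IFNgamma cells and 36.3 in Th9 cells by the other (1.63). The modifier, the protease and the ligase were thus all at least 2-fold higher, the modifier by the widest margin in log2 difference. Of the enzymes not on the list, Uba7, which activates ISG15, read 13029.6 in Th9+IFNgamma cells and 3582 in Th9 cells (3.64-fold higher). Ube2l6, which carries ISG15 to the ligase, read 621 in Th9+IFNgamma cells and 222 in Th9 cells (2.80-fold higher). Every measured step of the chain was therefore at least 2-fold higher in Th9+IFNgamma cells.

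PARP enzymes of the interferon response attach ADP-ribose to proteins. Parp14, which is also known as a cofactor of the IL-4 factor STAT6, read 15973 in Th9+IFNgamma cells and 5139 in Th9 cells by its brightest probe, a log2 difference of 1.64. Its other probes gave 1.49 and 2.37, so that all 3 were past 2-fold. With normexp the probe at 1.49 gave 0.99, just short of 2-fold. Parp9, which acts in a complex with the ubiquitin ligase DTX3L, read 3287 in Th9+IFNgamma cells and 1318 in Th9 cells, a log2 difference of 1.32. Parp12, a zinc finger PARP, read 147 in Th9+IFNgamma cells and 3.13, not well above background, in Th9 cells, at least 11.7-fold higher (2.80-fold with normexp). Parp14, Dtx3l and Parp9 stand next to each other on chromosome 16.

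Other PARP genes split. Parp10 read 8007 in Th9+IFNgamma cells and 3146 in Th9 cells (2.55-fold higher), and Parp11 read 1236 in Th9+IFNgamma cells and 572 in Th9 cells (2.16-fold higher, and a log2 difference of 0.96 with normexp). Zc3hav1, a PARP relative that targets viral RNA, was named after its value was seen and lay at the threshold, with a log2 difference of 1.01 by its brightest probe and 0.53 by its probe with the smallest difference. Of the remaining 7 measured PARP genes outside the list, Parp8 had the largest log2 difference, 0.83, and Parp16 the lowest, -0.39, both named after their values were seen. No IFIT relative outside the list was measured on both arrays. Of the 13 measured relatives of the OAS and PARP families outside the list, 5 passed 2-fold upward and 0 downward, Parp11 and Zc3hav1 among the 5. Of all measured genes 5.15% and 7.42% did, and the median log2 difference of the 13 was 0.83.

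**Figure D4:**
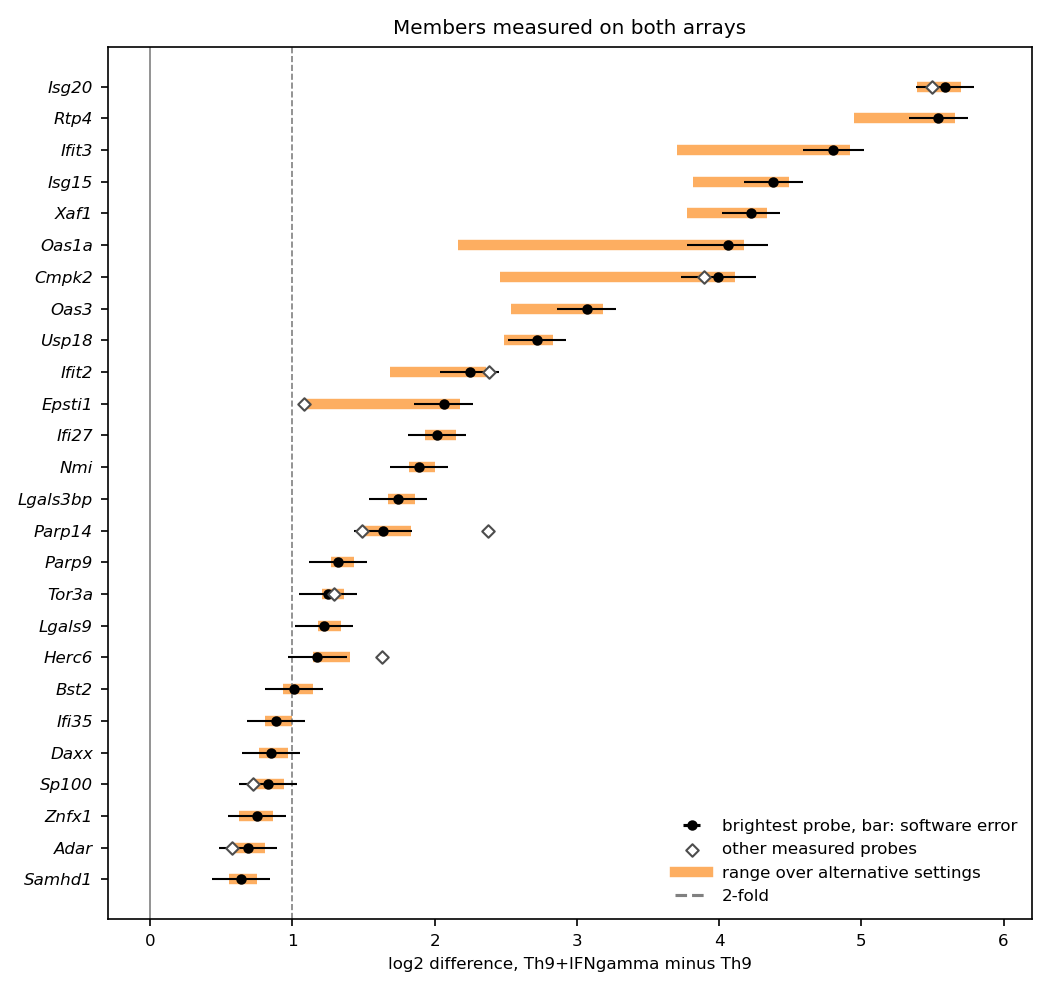
Log2 difference, Th9+IFNgamma minus Th9, of the 26 genes of the list measured on both arrays, with the extraction software's error as a bar, other measured probes as diamonds and the range over 11 alternative settings in orange. The genes run from 5.59 for Isg20 to 0.64 for Samhd1, none crosses 0, and the widest orange ranges belong to genes dim on the Th9 array such as Oas1a and Cmpk2.

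Enzymes that act on nucleotides and nucleic acids held both ends of the range. Isg20, an exonuclease that degrades single-stranded RNA, read 30035 in Th9+IFNgamma cells and 624 in Th9 cells by its brighter probe and 13517 in Th9+IFNgamma cells and 298.6 in Th9 cells by the other. The log2 differences were 5.59 and 5.50, and 5.39 with normexp, so that this size depended little on probe or background. Cmpk2, a mitochondrial nucleotide kinase, read 442 in Th9+IFNgamma cells and 27.7 in Th9 cells (log2 difference 3.99, and 3.89 by its other probe), and 2.46 with normexp. Its neighbour on chromosome 12, Rsad2, encodes viperin, which makes a chain-terminating nucleotide. Rsad2 read 45.6 in Th9+IFNgamma cells and 3.00, not well above background, in Th9 cells by 1 of 3 probes, at least 3.64-fold higher (1.54-fold with normexp). Its other 2 probes were above background on neither array. Isg20 and Cmpk2 therefore had measured differences, whereas Rsad2 had a bound that rests on 1 dim probe.

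Samhd1, Adar and Znfx1 lay within 2-fold. Samhd1, which breaks down the nucleotides that retroviruses need, read 12472 in Th9+IFNgamma cells and 8029 in Th9 cells (1.55-fold higher). Adar, which edits adenosine in double-stranded RNA, read 2364 in Th9+IFNgamma cells and 1465 in Th9 cells (1.61-fold higher), and its other probe gave a log2 difference of 0.57. Znfx1, a helicase that senses viral RNA, read 1069 in Th9+IFNgamma cells and 635 in Th9 cells (1.68-fold higher). These 3 differences exceed the software error of about 0.20 on the log2 scale. That error is nearly the same for the bright genes of the list and was not measured from repeats. With 1 array each the variation between cultures is unknown.

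Genes for membrane, secreted and secretory pathway proteins were all 6 at least 2-fold higher, Bst2 only just, where 5.15% of all measured genes were. Rtp4, a Golgi chaperone of cell surface receptors, read 5940 in Th9+IFNgamma cells and 128 in Th9 cells, a log2 difference of 5.54 (46.6-fold, and 4.95 with normexp). Ifi27, a small mitochondrial membrane protein, read 33460 in Th9+IFNgamma cells and 8290 in Th9 cells, a log2 difference of 2.01. Lgals3bp, a secreted glycoprotein that binds galectins, read 23719 in Th9+IFNgamma cells and 7077 in Th9 cells (1.74). Rtp4 stood far above the others in log2 difference.

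Tor3a, an ATPase of the endoplasmic reticulum, read 2443 in Th9+IFNgamma cells and 1029 in Th9 cells (log2 difference 1.25, and 1.29 by its other probe). Lgals9, which encodes galectin-9, a ligand of the T cell receptor TIM-3, read 2681 in Th9+IFNgamma cells and 1148 in Th9 cells (1.22). Bst2, or tetherin, which holds budding virus at the cell surface, read 24453 in Th9+IFNgamma cells and 12150 in Th9 cells, a log2 difference of 1.01. The Bst2 value fell short of 2-fold with 3 of the other scalings, at 0.93 to 0.99.

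Regulators in the nucleus and of cell death differed among themselves. Xaf1, which counters the apoptosis inhibitor XIAP, read 2929 in Th9+IFNgamma cells and 157 in Th9 cells, a log2 difference of 4.22 (18.7-fold). Daxx, a histone chaperone and partner of PML bodies, read 19585 in Th9+IFNgamma cells and 10856 in Th9 cells (1.80-fold higher). Sp100, a core protein of PML bodies, read 4939 in Th9+IFNgamma cells and 2784 in Th9 cells (1.77-fold higher), with 0.72 on the log2 scale by its other probe. Both PML body genes thus lay within 2-fold, and Xaf1 well outside it.

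Of the other interferon-induced genes, Nmi and Ifi35 encode proteins that bind each other. Nmi read 25462 in Th9+IFNgamma cells and 6873 in Th9 cells, a log2 difference of 1.89, and Ifi35 read 10317 in Th9+IFNgamma cells and 5603 in Th9 cells, one of 0.88. The partners therefore differed in size, on either side of 2-fold. Epsti1, which promotes macrophage activation in mouse, read 765 in Th9+IFNgamma cells and 183 in Th9 cells by its brighter probe (log2 difference 2.06) and 104 in Th9+IFNgamma cells and 49.1 in Th9 cells by the other (1.08). Its 2 probes carry different RefSeq accessions, and their gap of 0.98 was the widest among the genes of the list with several measured probes. Ifi44, a cytoplasmic interferon-induced protein, read 62.9 in Th9+IFNgamma cells and 3.26, not well above background, in Th9 cells, at least 5.03-fold higher (1.69-fold with normexp).

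Probes of the same gene agreed in sign. Of the 26 measured genes, 9 had several measured probes, and in all 9 the probes had the same sign and lay on the same side of 2-fold. With normexp the probes of Herc6, Parp14, Tor3a and Epsti1 kept the same sign but fell on both sides of 2-fold. The Epsti1 probes, for example, then gave log2 differences of 1.66 and 0.44. Of all 4415 genes with several measured probes, 3420 agreed in sign. All measured genes centre on a log2 difference of -0.01, where signs change easily, so these counts are not a like comparison. Probes not well above background on both arrays are left out. The gap between probes ran from 0.05 for Tor3a to 0.98 for Epsti1 on the log2 scale. Of 48 probes for genes of the list, 44 exceeded background in Th9+IFNgamma cells and 36 in Th9 cells. Of all probes, 60.6% did in Th9+IFNgamma cells and 59.9% in Th9 cells. Probes of a gene read the same RNA and are not replicates.

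The machinery upstream of these genes differed less evenly. Of 12 signalling genes, all measured, 3 passed 2-fold upward in Th9+IFNgamma cells and 1 downward, where 5.15% and 7.42% of all measured genes did, so the 1 downward is near the background. Their median log2 difference was 0.85, against -0.01 for all measured genes. Irf7, which amplifies the type I response, read 1246 in Th9+IFNgamma cells and 149.7 in Th9 cells (8.33-fold higher). Irf1 read 67688.5 in Th9+IFNgamma cells and 9272 in Th9 cells (7.30-fold higher). Stat2 read 6715 in Th9+IFNgamma cells and 3647 in Th9 cells (1.84-fold higher), and Irf9 read 4230 in Th9+IFNgamma cells and 2282 in Th9 cells (1.85-fold higher). Stat2 and Irf9 thus lay just within 2-fold, and Irf7 and Irf1 well outside it. With median scaling Irf9 just passed 2-fold, at a log2 difference of 1.01.

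Receptor chains and kinases were mixed. Ifnar2 was 2.41-fold higher by its brighter probe, at 4703 in Th9+IFNgamma cells and 1952 in Th9 cells, and its other probe gave a log2 difference of 0.44. Ifnar1 read 1684 in Th9+IFNgamma cells and 949 in Th9 cells (1.77-fold higher), and Ifngr1 read 28822.5 in Th9+IFNgamma cells and 15628 in Th9 cells (1.84-fold higher). Ifngr2, the other chain of the interferon-gamma receptor, read 2133 in Th9+IFNgamma cells and 3227 in Th9 cells (1.51-fold lower). Jak2, a kinase of that receptor, was named after its value was seen and read 2461 in Th9+IFNgamma cells and 5626 in Th9 cells (2.29-fold lower, and -0.90 on the log2 scale by its other probe).

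Of 8 interferon genes with a probe, 4 were measured on both arrays and 4 (Ifnb1, Ifna4, Ifne and Ifnk) were above background on neither. Ifna2 read 25.2 in Th9+IFNgamma cells and 26.5 in Th9 cells, Ifna5 read 19.3 in Th9+IFNgamma cells and 22.9 in Th9 cells, and Ifnz read 92.8 in Th9+IFNgamma cells and 100.1 in Th9 cells, all 3 named after their values were seen. Ifng was 2.11-fold higher, at 2005 in Th9+IFNgamma cells and 951 in Th9 cells, with 0.96 on the log2 scale by its other probe. The probed type I interferon genes thus differed little or were not above background at harvest.

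Among 9 measured antiviral effectors outside the list, 3 passed 2-fold upward and 0 downward, where 5.15% and 7.42% of all measured genes did, and the median log2 difference was 0.56. Ifih1, a sensor of double-stranded RNA, read 395 in Th9+IFNgamma cells and 61.3 in Th9 cells, a log2 difference of 2.69 (1.80 with normexp). Zbp1, a sensor of Z-form nucleic acid, read 14177 in Th9+IFNgamma cells and 2703 in Th9 cells (5.24-fold higher). Eif2ak2, which encodes the kinase PKR, read 2800 in Th9+IFNgamma cells and 729 in Th9 cells (3.84-fold higher). Trim25, named after its value was seen, had a log2 difference of 0.39 by its brighter probe and 1.84 by its other one. Mx1 had no probe with a matched accession.

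**Figure D5:**
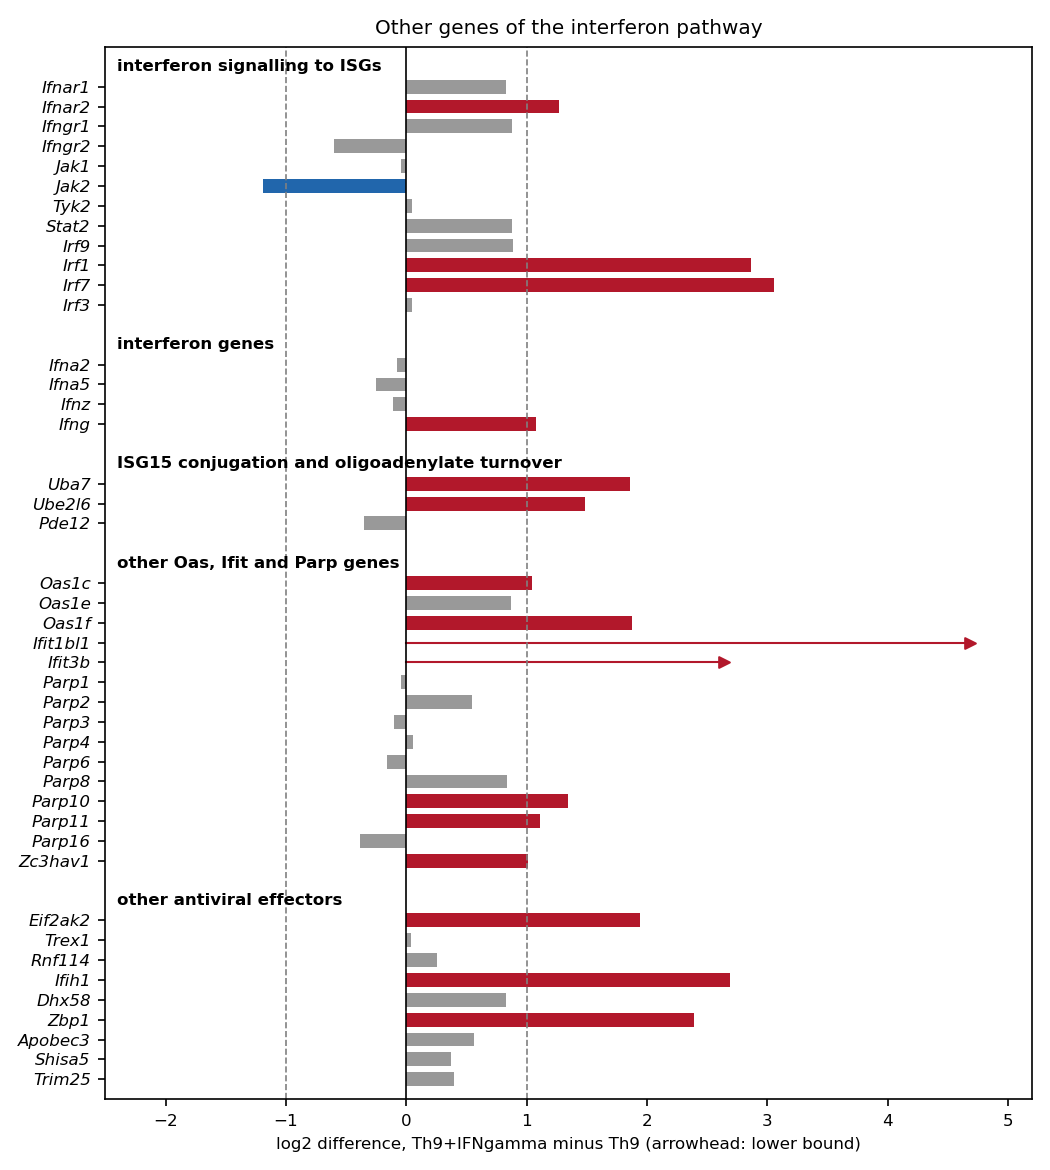
Log2 difference, Th9+IFNgamma minus Th9, of other interferon pathway genes measured on both arrays (bars, red at least 2-fold higher, blue at least 2-fold lower, grey within 2-fold) or above background on the Th9+IFNgamma array alone (arrowheads at the lower bound), with dashed lines at 2-fold. Irf7 at 3.06 and Irf1 at 2.87 have the longest bars, and Jak2 at -1.19 is the blue one.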

How the data were processed

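RNA of 2 cultures was measured on 2 single-colour Agilent arrays, 1 Th9+IFNgamma and 1 Th9, sharing 1 slide and 1 scan. The deposited intensity values come from Agilent Feature Extraction, version 10.7.3.1 in the headers and 10.7 in the submitters' processing notes, and are background-subtracted per the file headers, without scaling between arrays. The deposited log2 value table was log2 of the median processed signal less a constant close to each array's 75th percentile (the offset had an SD of 2.5e-07 for Th9+IFNgamma and 2.2e-07 for Th9). The Th9+IFNgamma column had a median of -4.05 and the Th9 column one of -3.93.

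Here, spots of a probe were averaged as log2 processed signal, without control spots or outlier flags (99 Th9+IFNgamma and 71 Th9 spots), and each array's 75th percentile was subtracted. Of 41171 probes, 27050 matched 1 gene by RefSeq accession, 0 several and 14121 none. The array's design names another genome build than the table, so only promoter windows carry coordinates. The brightest probe well above background on both arrays stood for a gene. Every gene of the list is named, and from each pathway list up to 4 largest differences and 2 largest bounds, plus genes fixed by name. Some genes of the pathway lists are not reported here, and the counts of those lists leave them out. The genes and lists were chosen with earlier results of these data known. With 1 array per condition, no test was made, and the number of arrays limits the precision. The gene values were tested on simulated data, in which only genes with a Th9 signal above 100 were changed. Genes dimmer than that in Th9 cells were not among those changed, so that test does not cover their sizes. Alternatives changed the scaling, background correction, probe choice and filters (limma 3.58.1, R 4.3.3, numpy 2.4.6). The scanner files used here hold no mean spot signal, so normexp (offset 50) used the median spot signal.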

Additional observations from a re-analysis of the deposited data

How the results depend on the processing

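Under 11 alternatives the 26 genes of the list measured on both arrays kept a higher signal in Th9+IFNgamma cells in all 286 single values, and the side of 2-fold in 283. The exceptions were Bst2 with a 75th percentile over detected probes (0.99), quantile normalization (0.93) and loess on intensity (0.97), which left 19 genes at least 2-fold higher in place of 20. None of the genes was at least 2-fold lower under any of the 11. The median log2 difference of 1.82 was 1.67 with normexp, 1.62 by the probe with the smallest difference and 2.15 without a filter on dim probes, which takes in 34 genes, of which 27 were at least 2-fold higher and 33 higher. Without that filter 1205 of all 18434 named genes were at least 2-fold higher, against 632 of 12272 with it. The counts at 8-fold and 16-fold and the medians by motif were read under the same 11 alternatives, an addition made after seeing the data. The 16-fold count of 6 was 2 with normexp, 11 of 34 without the filter and 6 or 7 otherwise, and the 8-fold count of 8 was 5 with normexp, 14 without the filter and 8 otherwise. The ISRE core median of 3.57 was 2.35 with normexp and 3.54 to 3.68 otherwise, and that of genes without a core, 1.46, was 1.13 to 1.57. With normexp 4 of 7 bounds stayed at least 2-fold. Normexp shrinks differences of dim genes by construction, since it adds an offset. Median scaling shifted the median of all genes to 0.11 and no filter to -0.12. Signal over background limits Oasl1, Rsad2 and Ifi44 most. Some pathway genes outside the list also changed side of 2-fold, among them Irf9 with median scaling and Trim25 with the mean over probes (1.12). No paired analysis was possible because each condition has 1 array.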

Other observations

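Genes that stand directly beside a gene of the list on its chromosome, and are not on the list, were read as well, after the other values were known. Of 58 such protein-coding neighbours, 31 were measured on both arrays. Of these, 5 (16.1%) passed 2-fold upward in Th9+IFNgamma cells and 3 (9.68%) downward, against 5.15% and 7.42% of all measured genes, and their median log2 difference was -0.09. The higher ones were Slc6a13, a transporter gene next to Usp18 (208 in Th9+IFNgamma cells and 27.3 in Th9 cells), Ifi27l2a next to Ifi27 (99306 in Th9+IFNgamma cells and 29412 in Th9 cells), Rbm43 next to Nmi (2.61-fold), Rbl1, a relative of the retinoblastoma gene next to Samhd1 (2.31-fold), and Dnajc15 next to Epsti1 (2.22-fold). Rbl1 was thus further from equal signal than Samhd1 beside it (1.55-fold). The lower ones were Vat1 next to Ifi35 (3.81-fold lower), Hspbap1 next to Parp14 (2.58-fold lower) and Chrnb2 next to Adar (2.12-fold lower). Ifi27l2b, on the other side of Ifi27, was above background on the Th9 array alone, so that its Th9+IFNgamma signal was lower by at least 9.64-fold. Adjacent family genes thus went opposite ways around Ifi27, and uptake of a relative's RNA by these probes was not tested. Of other neighbours with only a bound of at least 2-fold, Fbxo39 next to Xaf1 was lower in Th9+IFNgamma cells, by at least 2.13-fold. Ifit1bl1 next to Ifit3 was higher, by at least 25.7-fold.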
